A study of Mus musculus with 2 samples.

Results

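The translation initiation and elongation factors were described here in G1E-ER4 cells treated with estradiol. The genes were chosen by name: every protein-coding gene whose symbol begins with Eif1, Eif2, Eif3, Eif4, Eif5, Eif6, Eef1 or Eef2, leaving out the eIF2 kinases (symbols beginning Eif2ak). The rule uses names only, although the set was taken up with earlier results of these data known. The rule gave 63 genes of 21474 protein-coding genes in the tables, 51 named Eif and 12 named Eef. It also takes in regulators that carry a factor's name, such as the eIF4E-binding repressors, the kinase of eEF2 and the methyltransferases of the elongation factors.

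G1E is an immortalized mouse erythroid line that lacks GATA1, the master transcription factor of red cell development. In its derivative G1E-ER4 the missing factor is supplied as a fusion protein with the ligand-binding part of the estrogen receptor, which is inactive until estradiol is added. All cells of the study received 10 nM 17beta-estradiol for 14 h. PolyA-selected RNA was sequenced as paired ends in 2 libraries, numbered as biological replicates 1 and 2, with no untreated or other control group analysed here. The labels give both libraries the same biosample, so part of their spread may be technical, and no value below measures an effect of estradiol or of GATA1.

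Protein synthesis begins when eIF2, loaded with GTP and the initiator tRNA, joins the small ribosomal subunit together with eIF1, eIF1A, eIF3 and eIF5. The cap-binding complex eIF4F (the cap binder eIF4E, the scaffold eIF4G and the helicase eIF4A) brings the message to that subunit, which scans to the start codon before eIF5B joins the large subunit. During elongation eEF1A delivers each aminoacyl-tRNA, eEF1B recharges eEF1A with GTP, and eEF2 moves the ribosome along by a codon. Erythroid precursors depend on this machinery to make globin, and several of its messages begin with a tract of pyrimidines that ties their translation to mTOR signalling.

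Summed expected counts were 38395481 in replicate 1 and 60097379 in replicate 2, a 1.57-fold difference in depth. The 10 erythroid markers were all at 1 TPM or more in both libraries. Of the markers of other cells, Spi1 of 5 myeloid genes and 2 of 4 megakaryocyte genes passed that level, and none of 4 lymphoid, 5 stromal and endothelial or 3 pluripotency genes did. The summed erythroid markers came to 27403 TPM in replicate 1 and 76790 TPM in replicate 2, most of it the globins Hba-a1 and Hbb-bs. Klf1, Tal1 and Zfpm1 were lower in replicate 2 by TPM and the other 7 higher, and their part in any difference described below was not tested. TPM is a transcript level that is divided by transcript length and scaled to a fixed sum, so it allows different genes to be compared.

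Nearly the whole set was present. Of the 63 genes, 56 (88.9%) reached 1 TPM in both libraries, against 37.6% of all protein-coding genes, and 31 (49.2%) reached 50 TPM in both, against 9.08%. The median gene of the set stood at 56.0 TPM in replicate 1 and 53.6 TPM in replicate 2, while the median of all protein-coding genes was 0.03 and 0.02 TPM. Together the 63 genes held 1.77% of the TPM of replicate 1 and 1.58% of that of replicate 2. As a set they stood below the 85 cytosolic ribosomal protein genes, whose medians were 143 and 255 TPM. The spread within the set was wide: among the 56 expressed genes the highest mean TPM was 2657 times the lowest.

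**Figure D1:**
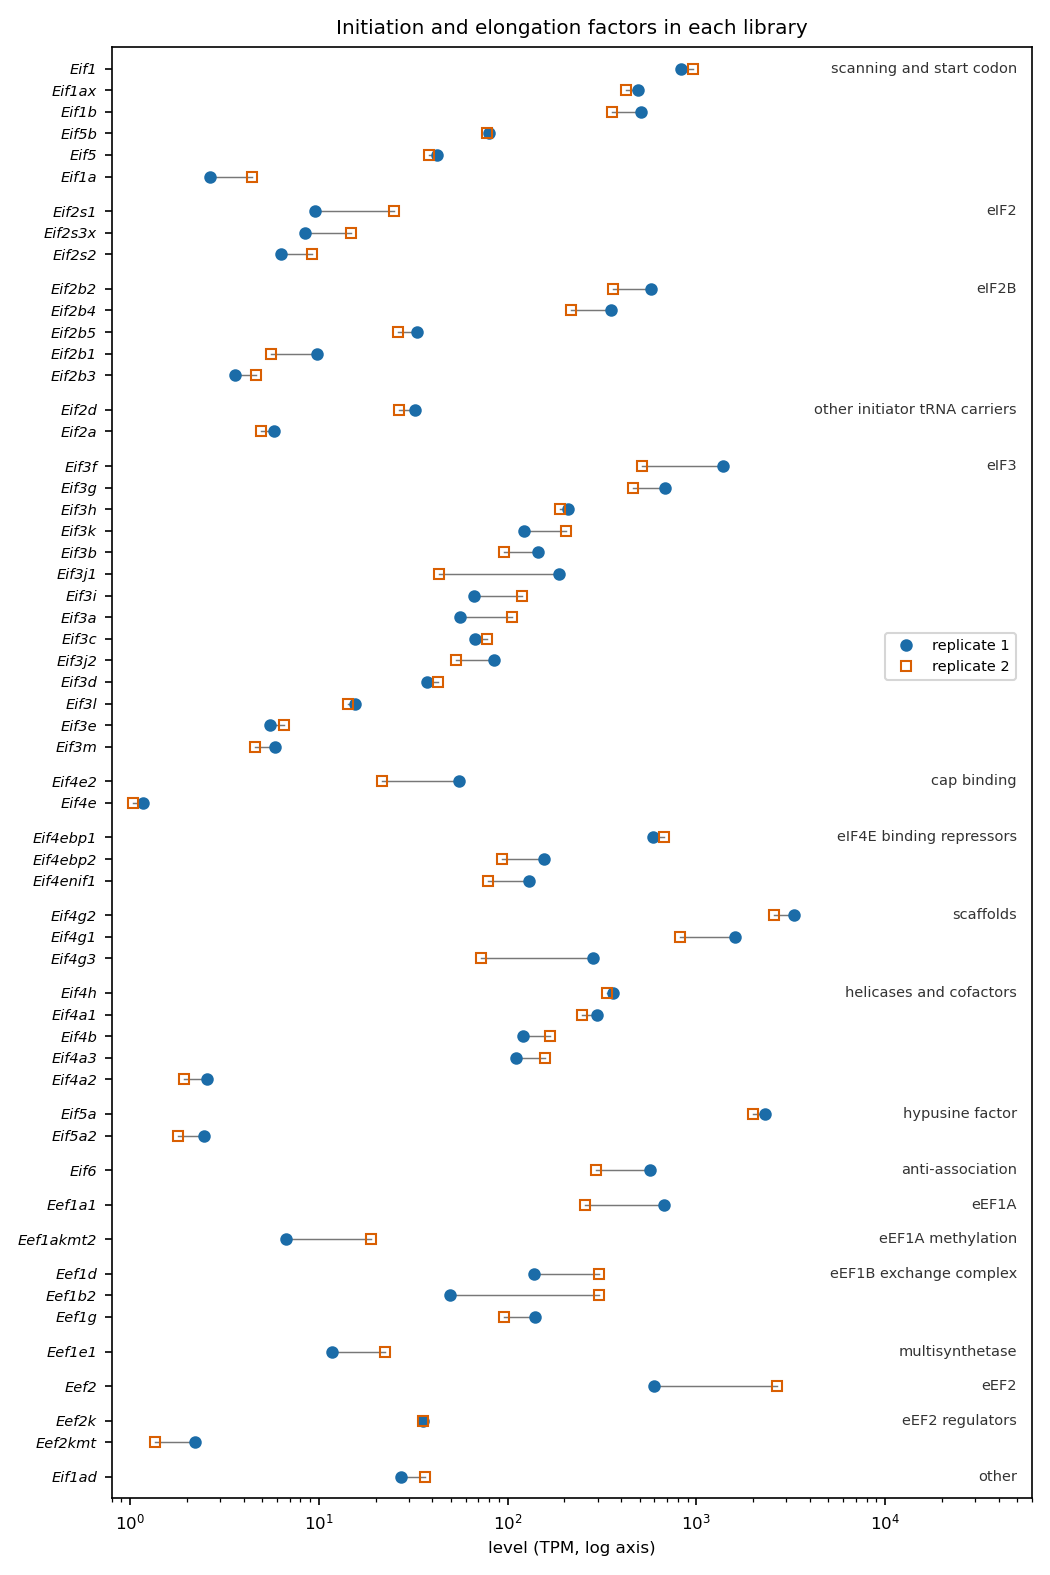
Level of each of the 56 genes at 1 TPM or more in both libraries (rows, grouped by role) in TPM on a log axis. Filled circles are replicate 1, open squares are replicate 2, and a grey line joins them. The levels run between close to 1 TPM for Eif4e and 2936 TPM (the mean) for Eif4g2, and Eif1a, Eif3e, Eif3m, Eif4e, Eif4a2 and Eif5a2 lie far to the left of the leading genes of their groups.

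By the summed TPM of each gene, the factors that scan for and choose the start codon were mostly abundant. Eif1, whose protein guards the accuracy of start codon choice, was at 829.8 TPM in replicate 1 and 956 TPM in replicate 2. Its close relative Eif1b was at 511 and 355 TPM. Eif1ax, the X-linked gene for eIF1A, was at 492 and 425 TPM, and the autosomal gene Eif1a was at 2.64 and 4.42 TPM. Of the Eif1ax level, only 0.39 and 0.98 TPM lay on protein-coding transcripts, as described with the isoforms. Eif5b, for the GTPase that joins the large subunit, was at 79.4 and 77.85 TPM, and Eif5, for the GTPase-activating protein of eIF2, at 42.1 and 38.2 TPM. For Eif5b, 12.05 and 6.38 TPM lay on protein-coding transcripts. Eif1ad, named for its eIF1A-like domain, was at 27.2 and 36.6 TPM.

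The 3 genes of eIF2, the carrier of the initiator tRNA, were low in both libraries. Eif2s1, the alpha subunit whose phosphorylation shuts initiation down, was at 9.51 and 25.15 TPM. Eif2s3x, the gamma subunit that binds GTP and the tRNA, was at 8.43 and 14.75 TPM, and Eif2s2, the beta subunit, at 6.32 and 9.26 TPM. No eIF2 gene reached the median of the set in either library, and each was higher in replicate 2. The Y-linked gamma gene Eif2s3y had no count in either library. The labels give the line as male, and the 183 Y-linked protein-coding genes of the tables held 2 counts in replicate 1 and 0 in replicate 2.

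The exchange factor eIF2B, which reloads eIF2 with GTP, had very unequal subunit messages. Eif2b2 was at 579 and 361 TPM, and Eif2b4 at 353 and 216 TPM. The catalytic subunit Eif2b5 was at 33.1 and 26.2 TPM, Eif2b1 at 9.77 and 5.59 TPM and Eif2b3 at 3.58 and 4.63 TPM. By summed TPM the order of the 5 genes was the same in both libraries. On protein-coding transcripts alone it was not, with Eif2b4 at 28.8 and 27.02 TPM and Eif2b5 at 33.1 and 26.2 TPM. The ratio of the highest to the lowest mean was then 18.7, against 114 on all transcripts. For Eif2b2 and Eif2b4 most of the TPM lay on short transcripts, as described with the isoforms. The other initiator tRNA carriers, Eif2d and Eif2a, were at 32.15 and 26.7 TPM and at 5.81 and 4.95 TPM.

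All 14 genes of eIF3, the largest initiation factor and the platform on which the others assemble on the small subunit, were expressed. Eif3f was the highest in both libraries, at 1392 TPM in replicate 1 and 514 TPM in replicate 2, followed by Eif3g at 682 and 460.0 TPM. Below them came Eif3h with 209 and 190.5 TPM, Eif3k with 122 and 203 TPM, Eif3b with 145 and 95.5 TPM, Eif3i with 66.1 and 119.7 TPM and the RNA-binding core subunit Eif3a with 56.0 and 105 TPM. Eif3c at 67.1 and 78.1 TPM and the cap-contacting subunit Eif3d at 37.3 and 43.05 TPM lay near the middle. Eif3j1 was at 187 and 43.3 TPM and Eif3j2 at 84.7 and 53.6 TPM. The lowest were Eif3l at 15.6 and 14.3 TPM, Eif3e at 5.53 and 6.52 TPM and Eif3m at 5.89 and 4.61 TPM. These proteins occupy 1 complex, yet the highest message was 252 times the lowest in replicate 1 and 112 times in replicate 2.

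The contrast was larger still within eIF4F. Eif4e, the cap-binding protein, was the lowest expressed gene of the whole set, at 1.17 TPM in replicate 1 and 1.04 TPM in replicate 2, on 97.6 and 155 expected counts. Its relative Eif4e2, which binds the cap in repressor complexes, was at 55.5 and 21.7 TPM. Among the scaffolds, Eif4g2 (also called DAP5, which lacks the eIF4E-binding site) had the highest mean TPM of the set, with 3296 TPM in replicate 1 and 2577 TPM in replicate 2, Eif4g1 was at 1611 and 816 TPM and Eif4g3 at 285 and 72.6 TPM. The helicase Eif4a1 was at 299 and 247 TPM, while Eif4a2 was at 2.55 and 1.94 TPM. On protein-coding transcripts alone Eif4a1 was at 81.0 and 40.45 TPM and Eif4a2 at 0.46 and 0.54 TPM. Eif4a3, the related helicase of the exon junction complex, was at 111 and 158 TPM. The helicase cofactors Eif4h and Eif4b were at 361 and 338 TPM and at 120.4 and 169 TPM. Eif4g1 exceeded Eif4e by 1377 times in replicate 1 and 784 times in replicate 2. A 626-base processed transcript held 61.5% and 35.7% of the TPM of Eif4g1, and on protein-coding transcripts alone the ratio of mean levels was 438, against 1098 on all.

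The proteins that restrain eIF4E were well represented. Eif4ebp1, which competes with the scaffold for eIF4E and is released from it by mTOR phosphorylation, was at 589 and 670.2 TPM. Eif4ebp2 was at 156 and 93.0 TPM, Eif4enif1 (the eIF4E transporter) at 129 and 78.85 TPM and Eif4ebp3 at 0.88 and 0.67 TPM. Eif4ebp1 was thus above Eif4e by more than the spread between the libraries, whose values did not overlap.

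Eif5a, whose protein carries the amino acid hypusine and eases ribosomes through difficult stretches, was at 2320.5 TPM in replicate 1 and 1994 TPM in replicate 2, the second highest mean of the set. In replicate 2 both Eef2 and Eif4g2 stood above it. Its relative Eif5a2 was at 2.46 and 1.79 TPM. Eif6, whose protein keeps the ribosomal subunits apart, was at 569 and 292 TPM.

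Among the elongation factors Eef2 had the highest mean, with 600.2 TPM in replicate 1 and 2686 TPM in replicate 2. Eef1a1 was at 675 and 257 TPM, so their order by TPM was opposite in the libraries. In CPM Eef2 was above Eef1a1 in both, with 1442 against 656 in replicate 1 and 6968 against 291 in replicate 2. The eEF1B subunits were Eef1d at 139 and 305 TPM, Eef1b2 at 49.4 and 304 TPM and Eef1g at 141 and 95.4 TPM. Eef1g was the highest of the 3 in replicate 1 and the lowest in replicate 2. Eef1e1, a scaffold protein of the multisynthetase complex that bears the factor's name, was at 11.8 and 22.4 TPM. Eef2k, the kinase that inactivates eEF2, was at 35.6 and 35.7 TPM, of which 8.86 and 10.64 TPM lay on protein-coding transcripts. Eef2kmt was at 2.22 and 1.35 TPM and Eef1akmt2 at 6.67 and 18.9 TPM. The 7 genes under 1 TPM in at least 1 library were Eif4ebp3, Eef1akmt1, Eif4e1b, Eef1akmt3, Eef1a2, Eif2s3y and Eif4e3, the last 3 with no count. A count of 0 allows up to 0.0781 CPM in replicate 1 and 0.0499 CPM in replicate 2. CPM is counts scaled to a fixed library total, not divided by length. The limits for a count of 0 use the summed counts as the library size, and the CPM of genes uses TMM-scaled library sizes.

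Across the 56 expressed genes, mean TPM was higher at higher GC content (Spearman's rho = 0.52, a description over genes of the same 2 libraries). GC content was that of each gene's longest protein-coding transcript. In some genes, such as Eif1ax and Eif4g2, most of the TPM lay on another, shorter transcript. Over 8062 expressed protein-coding genes rho was 0.33. Of the genes with low levels, Eif5a2 had 38.8%, Eif1a 39.97%, Eif4a2 40.2%, Eif3e 40.3% and Eif4e 40.5% GC, but Eif4ebp3 had 53.5%, Eif4e1b 52.8% and Eef1a2 60.6%. Of the abundant genes, Eif5a had 55.0% and Eif3g 55.8%, but Eif4g2 had 43.2% and Eif1ax 39.7%. The part of GC content in these levels was not tested.

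For many factors the mouse genome holds a related gene. Of 16 pairs compared, 13 are such relatives and 3 set a factor against another gene: Eef2 and its kinase Eef2k, the cofactors Eif4b and Eif4h, and Eif2s1 and Eif2b5. Both genes were detected in 10 of the 13 relatives and in all 3 others. In 8 of these 10 and 2 of these 3 the log2 ratio of TPM + 0.1 kept its sign across the libraries, and its mean was more than 2 times the gap between them. The most one-sided were Eif5a over Eif5a2 at 9.82 in replicate 1 and 10.04 in replicate 2, Eif4ebp1 over Eif4ebp3 at 9.23 and 9.77, and Eif4a1 over Eif4a2 at 6.82 and 6.92. Eif4ebp3 rested on only 15.94 and 21.43 expected counts. In the other direction stood Eif1a over Eif1ax at -7.49 and -6.56, and Eif4e over Eif4e2 at -5.45 and -4.26. Eef2 over its kinase Eef2k was 4.07 and 6.23, Eif4g1 over Eif4g3 2.50 and 3.49, Eif4ebp1 over Eif4ebp2 1.92 and 2.85, and Eif4g1 over Eif4g2 -1.03 and -1.66. Eif4b over Eif4h averaged -1.29 ± 0.41 (SD, n = 2). In CPM 9 pairs met this rule: Eif4ebp1 over Eif4ebp2 (mean 1.44) and Eif4b over Eif4h (-0.59) no longer did, Eif1 over Eif1b (1.67) did, and Eif4g1 over Eif4g2 turned to 0.36. Eif1a over Eif1ax turned to 2.27 when only protein-coding transcripts were summed.

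In 3 pairs the second gene had no count. Eef1a1, the general form of eEF1A, was at least 5986-fold higher than Eef1a2, the form of muscle and neurons. Eif2s3x was at least 299.6-fold higher than Eif2s3y, and Eif4e at least 32.5-fold higher than Eif4e3. These bounds set the counts against 3 counts per library and are the smaller of the 2 libraries. Unlike the TPM ratios they are not divided by length, which was 3647 bases for Eif2s3x and 1272 bases for Eif2s3y. The 183 Y-linked protein-coding genes together held 2 and 0 counts. The rule of 2 times the gap was not met by 3 pairs. Eif1 over Eif1b had the same sign in both libraries (0.70 and 1.43) and a mean of 1.06, above their gap of 0.73 but under 2 times it. Eif3j1 over Eif3j2 changed sign (1.14 and -0.31), and Eif2s1 over Eif2b5 was -1.79 and -0.06.

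**Figure D2:**
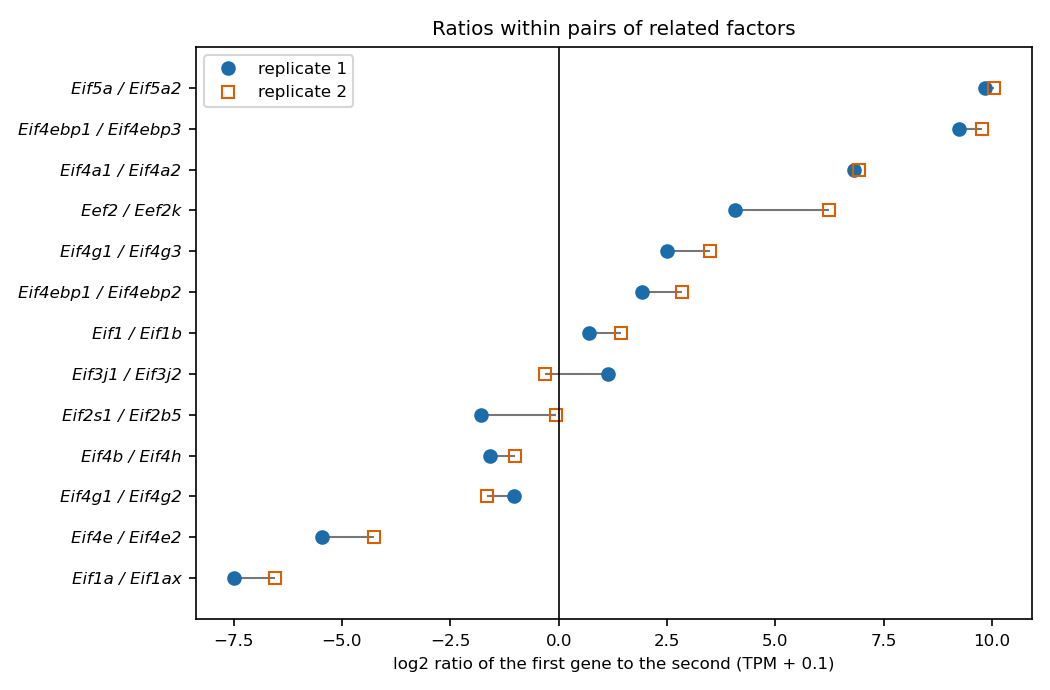
Log2 ratio of the first gene to the second (TPM + 0.1) for the 13 pairs with both genes detected, in replicate 1 (filled circles) and replicate 2 (open squares), sorted by the mean, with 0 as equality. The points of Eif5a over Eif5a2, Eif4ebp1 over Eif4ebp3 and Eif4a1 over Eif4a2 lie farthest to the right and those of Eif1a over Eif1ax farthest to the left.

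The coding sequences show where the copies differ (GRCm38, coding strand). Those of Eif1 on chromosome 11 and Eif1b on chromosome 9 have 339 bases each and are 81.1% identical, with no identical run over 25 bases. Their first 60 coding bases are shown because both genes were abundant. Capitals mark the 5 bases that differ.
Eif1: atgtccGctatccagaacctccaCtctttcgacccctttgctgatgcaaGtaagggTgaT
Eif1b: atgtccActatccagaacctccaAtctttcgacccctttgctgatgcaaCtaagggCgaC
Of the pairs with both genes detected, the most one-sided by TPM is shown at coding bases 127 to 171. These bases surround the lysine of codon 50 that is turned into hypusine. The 6 differences are again in capitals, and over the whole coding sequence Eif5a (chromosome 11) and Eif5a2 (chromosome 3) are 73.2% identical.
Eif5a: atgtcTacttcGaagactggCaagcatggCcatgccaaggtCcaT
Eif5a2: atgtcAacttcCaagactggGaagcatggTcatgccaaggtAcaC
The helicases Eif4a1 (chromosome 11) and Eif4a2 (chromosome 16) are 78.2% identical. The 48 coding bases around the codons of their DEAD box, the motif that names this helicase family, differ at 5 bases.
Eif4a1: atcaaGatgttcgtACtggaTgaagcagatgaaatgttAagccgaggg
Eif4a2: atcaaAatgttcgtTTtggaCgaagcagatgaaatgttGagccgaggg
For Eif4g2 (chromosome 7), the gene with the highest mean TPM of the set, the first 45 coding bases are shown because its reading frame opens with a GTG codon, in capitals, in place of ATG.
Eif4g2: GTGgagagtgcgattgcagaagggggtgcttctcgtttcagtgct
The pair Eif3j1 and Eif3j2 is the exception among the copies, with 100% identity over 783 aligned coding bases and an identical run of 781. Reads from that run cannot be assigned to 1 gene by sequence, so both levels are uncertain.

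The TPM of several leading genes rested on short or non-coding transcript models. Of the 50 genes with a mean TPM of at least 5, 40 had a protein-coding transcript in the lead, 5 a processed transcript, 4 a retained intron and 1 (Eif2b4) a transcript of 512 bases not found in the annotation used here. In 35 genes over 90% of the TPM lay on protein-coding transcripts in both libraries, and in 8 genes under 50% did. These 8 were Eif1ax, Eif2b2, Eif2b4, Eif3j1, Eif4a1, Eif5b, Eef1b2 and Eef2k. Eif1ax is the clearest case. Its 416-base retained-intron transcript held 99.9% of its TPM in replicate 1, against 0.39 TPM on protein-coding transcripts. In replicate 2 it held 99.8%, against 0.98 TPM.

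Eif4g2 was similar in kind, with 94.3% and 95.6% of its TPM on a protein-coding model of 742 bases with 6 exons, where the full model has 22 exons and 7995 bases. Eif2b2 had 87.7% and 68.7% on a 338-base retained-intron transcript, and Eif6 71.8% and 60.9% on a protein-coding model of 373 bases. Because TPM divides by length, reads placed on these short models raise the TPM of the gene. In CPM, without division by length, Eif4g2 had 1746 in replicate 1 and 1519 in replicate 2 and lay below Eif4g1 with 2304 and 1901. Eif5b had 84.8% and 91.8% on a retained-intron model of 5788 bases. Of 49 leading transcripts with a place in the annotation, 12 were under 50% of the length of the gene's full model. Of these 12, 9 began within 500 bases of the full model's start and 1 ended within 500 bases of its end, a limit chosen after the values were seen.

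**Figure D3:**
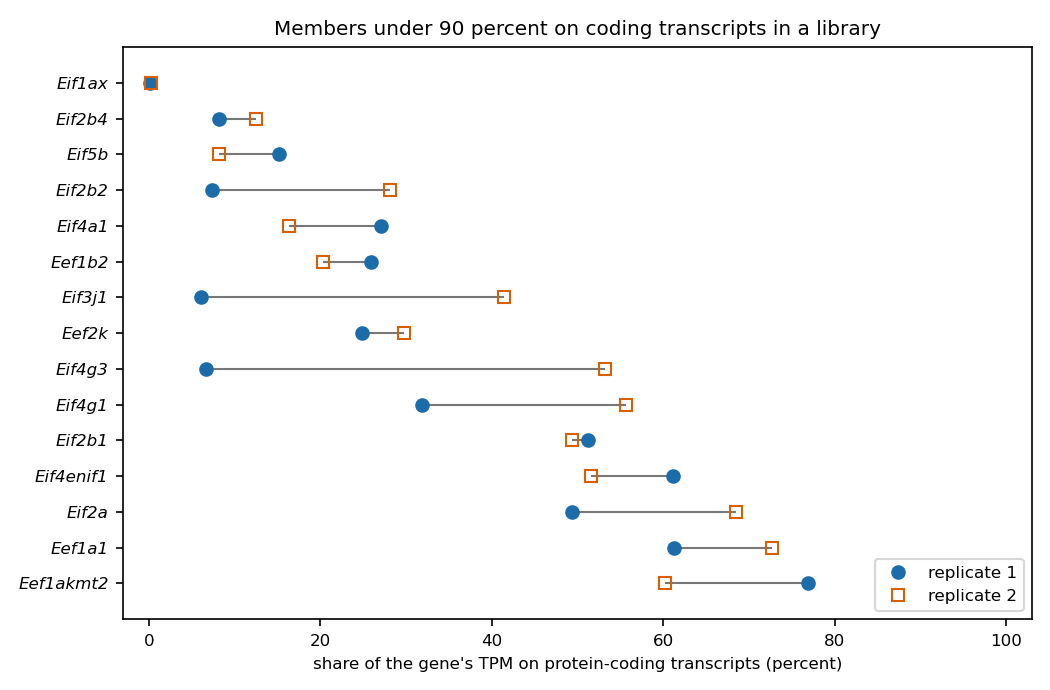
Share of the gene's TPM that lay on protein-coding transcripts, in percent, for the 15 genes with a mean TPM of at least 5 and a share under 90% in at least 1 library. Filled circles are replicate 1 and open squares replicate 2; Eif1ax lies near 0 in both, and Eif4g3 and Eif3j1 differ most between the libraries.

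In 14 of the 50 genes at least 2 transcripts each held 10% or more in both libraries. The leading transcript differed between the libraries in 5 genes, Eif4a3, Eif3i, Eif4enif1, Eif2b1 and Eif2a. In Eif4a3, the protein-coding transcript of 1509 bases held 30.4% in replicate 1 and 78.2% in replicate 2, and that of 916 bases held 69.1% and 13.2%. In Eif3i, the 734-base transcript held 63.4% and 43.9% and the 1123-base transcript 33.1% and 53.3%, both protein-coding. Other genes kept their lead with a different share. In Eef1b2, a processed transcript of 815 bases held 24.9% and 62.2%. In Eif3j1, a processed transcript of 594 bases held 93.9% in replicate 1 and 58.5% in replicate 2.

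The libraries could be compared gene by gene only with each other. The expected counts of each gene were set against TMM-scaled library sizes in an exact binomial test (two-sided), adjusted by Benjamini-Hochberg over 11230 genes, and a gene was called when its adjusted p was below 0.05 and it differed by 1.5-fold or more. Of the 58 genes of the set with enough counts, 21 passed (36.2%, against 41.4% of all tested genes). Of these, 7 were higher in replicate 1 (background 17.1%) and 14 higher in replicate 2 (background 24.3%). The share was near the background, and the median log2 ratio of replicate 1 over replicate 2 was 0.08 for the set and -0.05 for all tested genes. Such a test compares these libraries, not conditions, and covers counting error only.

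The elongation genes held the largest differences. Eef1b2 (chr1:63176825-63180486, plus strand, GRCm38) had 1007 expected counts in replicate 1 and 13386 in replicate 2. Its log2 ratio was -3.01, a fold for replicate 1 over replicate 2 of 0.124 (95% interval 0.116 to 0.132). Of these counts, 250 and 6792 lay on a processed transcript of 815 bases. The protein-coding transcripts of Eef1b2 held 12.8 TPM in replicate 1 and 61.8 TPM in replicate 2. Eef2 (chr10:81176631-81182498, plus strand) had 53926 and 429912 counts and a log2 ratio of -2.27, with a fold of 0.207 (0.205 to 0.209). Eef1d followed at -1.16, Eef1e1 at -1.03 and Eef1akmt2 at -1.75, all higher in replicate 2. Eef1a1 went the other way, with 24531 and 17957 counts and a log2 ratio of 1.17, and so did Eef2kmt at 0.65 (adjusted p = 0.0023) and Eef1akmt1 at 1.13 (adjusted p = 0.0317, exact binomial test) on only 20 and 15 counts. In all, 8 of the 10 tested Eef genes (80.0%) and 13 of the 48 tested Eif genes (27.1%) passed, against 41.4% of all tested genes; the difference between Eef and Eif genes was not tested. Of 83 cytosolic ribosomal protein genes tested, 54 passed (65.1%), 16 of them higher in replicate 1 and 38 higher in replicate 2, where 17.1% and 24.3% of all tested genes were.

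Of the initiation factors, Eif3f (chr7:108934417-108942951, plus strand) had 100278 and 65999 counts and a log2 ratio of 1.33. Eif4e2 at 1.32, Eif2b1 at 0.75 and Eif4ebp2 at 0.70 were also higher in replicate 1. All 3 detected eIF2 genes were higher in replicate 2, Eif2s1 at -1.51, Eif2s2 at -0.98 and Eif2s3x at -0.92. Unlike Eif3f, 3 other eIF3 genes were higher in replicate 2, with Eif3i at -1.10, Eif3a at -1.02 and Eif3k at -0.84. Eif4a3 at -0.94, Eif1a at -0.91 and Eif4b at -0.60 completed the genes higher in replicate 2. The called subunits of eIF3 thus differed in both directions. The call of Eif4b was lost with DESeq2 size factors (log2 ratio -0.58) and that of Eef2kmt with library totals (0.58), both just under the 1.5-fold limit.

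In some genes the TPM differed far more than the counts. With a 1.5-fold limit on TPM and no test, 16 genes were higher in replicate 1 and 11 in replicate 2, against 7 and 14 by counts. Of all tested genes 50.8% passed that TPM limit, and on TPM the median log2 ratio was 0.22 for the set and 0.09 for all. Eif3j1 was 4.31-fold higher in replicate 1 by TPM and 1.21-fold by scaled counts, and Eif4g3 3.92-fold and 1.21-fold. In Eif2b2 the directions were opposite: the log2 ratio was 0.68 by TPM and -0.28 by counts. The mean transcript length, which is not the effective length that divides the counts, also differed in these genes. It was 888 bases in replicate 1 and 2593 bases in replicate 2 for Eif3j1, 818 and 2161 bases for Eif4g3, and 451 and 704 bases for Eif2b2.

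**Figure D4:**
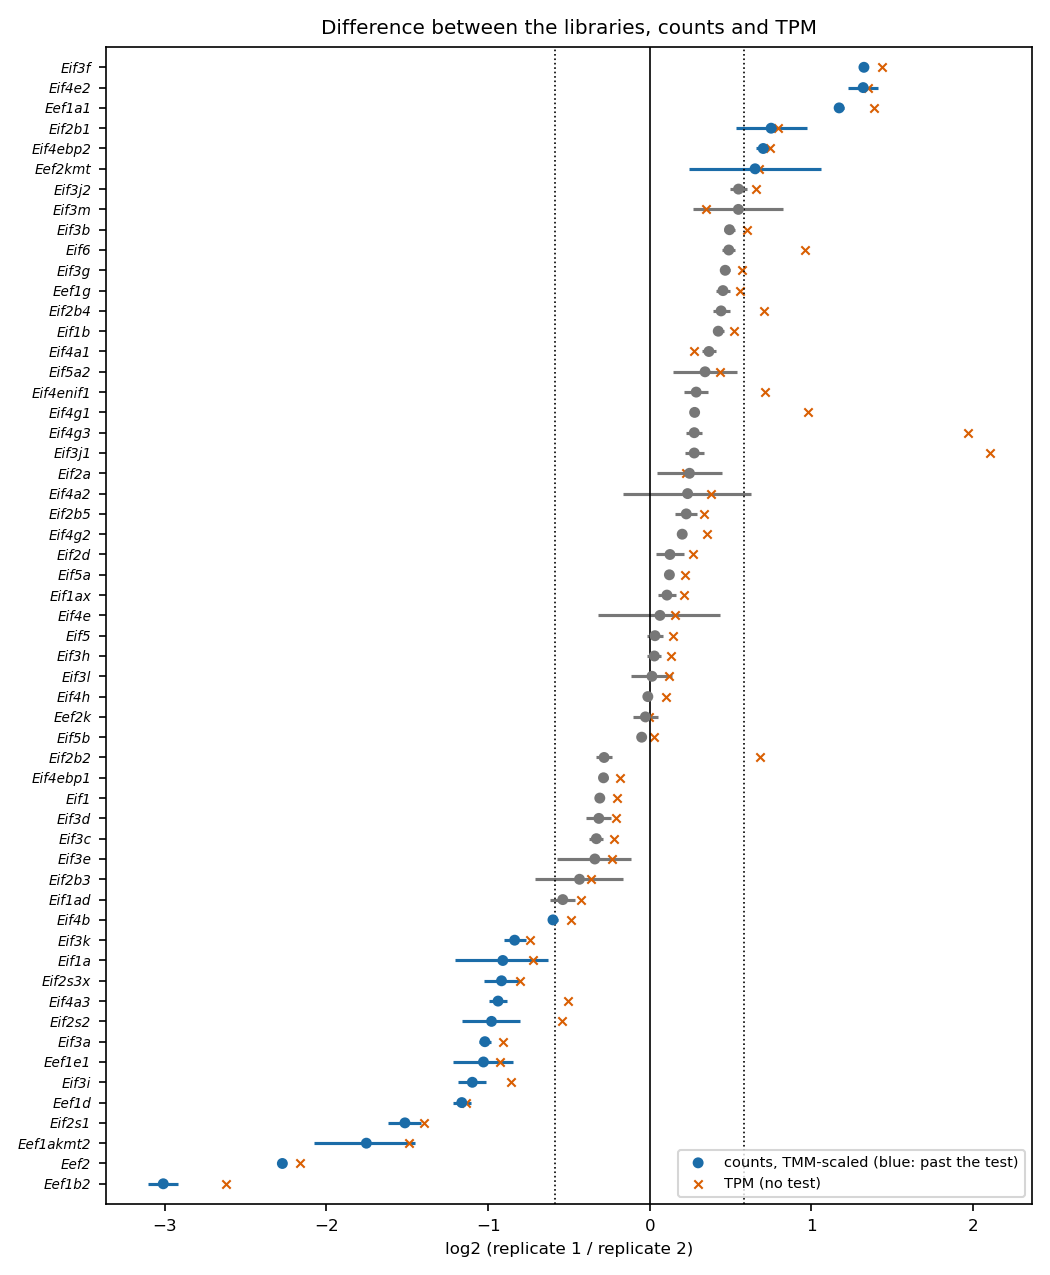
Log2 ratio of replicate 1 over replicate 2 for the 56 expressed genes. Points are TMM-scaled counts with 95% counting intervals, blue where the gene passed the test and grey where it did not, orange crosses are TPM, and dotted lines mark 1.5-fold. Eef1b2 and Eef2 lie farthest to the left, Eif3f and Eif4e2 farthest to the right, and the crosses of Eif3j1 and Eif4g3 lie far from their points.

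Promoters are shown for Eef2, Eef1b2, Eif3f and Eef1a1, abundant genes that passed the test between the libraries. RefSeq promoter windows on GRCm38.p6, 250 bases before to 50 after the start, were matched for 47 of the 63 genes. The pieces run over 40 bases before and 30 after the start, on the gene's strand, and the first match of the motif named after each is in capitals. The pyrimidine-rich motif CTCTTNC is in capitals for Eef2 at chr10:81176591-81176660, Eif3f at chr7:108934375-108934444 and Eef1a1 at chr9:78481695-78481764 on the minus strand. In Eef1a1 the match lies before the stretch tatataa, and whether a message begins at any of these matches was not tested. The ETS-type motif CCGGAAG is in capitals for Eef1b2 at chr1:63176791-63176860.
Eef2: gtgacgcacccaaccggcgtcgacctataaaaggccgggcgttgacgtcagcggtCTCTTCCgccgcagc
Eif3f: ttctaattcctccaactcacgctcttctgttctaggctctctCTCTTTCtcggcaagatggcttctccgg
Eef1a1: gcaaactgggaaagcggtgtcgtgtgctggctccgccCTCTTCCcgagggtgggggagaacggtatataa
Eef1b2: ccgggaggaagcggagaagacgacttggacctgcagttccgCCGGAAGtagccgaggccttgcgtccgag

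Searched on the gene strand in the 40 bases before to 50 after the start, CTCTTNC was found in 5 of the 47 promoters (10.6%) and in 4.75% of 27025 gene promoters. CCGGAAG, searched on both strands of the whole window, was found in 16 (34.0%) and in 9.93%. The E box CACGTG, bound by MYC and its relatives, was in 12 (25.5%) and in 8.09%, and the GC box GGGCGG in 36 (76.6%) and in 38.2%. The motif of GATA factors, AGATAA, was in 1 promoter, that of Eif3c (2.13%), and in 12.7% of all. Searches overlap where motifs share letters, and a match is a description of the letters in these windows. The printed promoters with CTCTTNC belong to Eef2, Eef1a1 and Eif3f, with log2 ratios between the libraries of -2.27, 1.17 and 1.33. The part of any motif in these differences was not tested.

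Other genes of protein synthesis came from a list of 31. Of these, 29 were at 1 TPM or more in both libraries and 12 (38.7%) at 50 TPM or more, with a median of mean levels of 49.4 TPM. The highest were Tpt1, for the translationally controlled tumour protein that binds eEF1A, at 1893 and 2189 TPM, the poly(A)-binding genes Pabpc1 at 2853 and 1204 TPM and Pabpc4 at 1936 and 1186 TPM, and Dohh, for the enzyme that completes hypusine, at 342 and 251 TPM. Mknk2, a kinase of eIF4E, was at 337 and 219.7 TPM and Gspt1, the termination factor eRF3, at 384 and 134 TPM. Gspt2 had no count. Of the 30 tested, 14 passed between the libraries (46.7%, near the 41.4% of all tested genes), 7 in each direction, and the median log2 ratio was 0.04.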

How the data were processed

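Per the labels, polyA RNA of 2 libraries was sequenced as paired ends and processed on mm10; the submitters' notes name the GENCODE M4 annotation, and the aligner is not given in the sources used here. The authors deposited expected counts, estimates that need not be whole and were rounded for tests. The deposited TPM and FPKM divide counts by effective length, per the file headers. The isoform percent the authors deposited gives each transcript's share of its gene's TPM. Of 43346 Ensembl gene rows, 42462 were named from GENCODE M21 on GRCm38; 26345 other rows, with 2 and 0 counts, were left out.

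Library sizes were scaled with TMM (edgeR 4.0.16; factors 0.974 and 1.027), and folds used 0.5 added counts and a minimum sum of 10 counts. With 1 library a side no count model has residual degrees of freedom, so an exact binomial test was used (SciPy 1.17.1). It covers counting error only and does not measure the spread between replicates. The test was checked on simulated data that held counting error only, so the check does not cover spread between replicates. Intervals and limits for 0 counts (3 counts per library) cover counting error only. Every gene at a mean of 1 TPM or more was named. Members, lists and pairs were chosen with earlier results of these data known. Alternatives used DESeq2 1.42.0 size factors, other thresholds, FPKM, other pseudocounts, protein-coding transcripts only and each library alone.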

Additional observations from a re-analysis of the deposited data

Results flagged for a closer look

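Outside the set, the processed pseudogene Eif4a-ps4 on chromosome 1 held 99.13 expected counts in replicate 1 and 76.46 in replicate 2, which is above the limit of 3 counts that a count of 0 allows. It is not protein-coding and so is not in the set, but it is among the 11230 genes tested between the libraries. Of 6 other non-coding rows whose symbols begin like those of the factors, none passed 3 counts in either library.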

How the results depend on the processing

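The median level of the set was 72.6 TPM as a mean of the libraries, 61.9 in FPKM and 31.9 when only protein-coding transcripts were summed. The number of genes called between the libraries was 21, and stayed between 20 and 27 with DESeq2 size factors, total counts, no minimum count or a TPM fold with no test, but was 12 at a 2-fold limit. The share of all tested genes called was 41.3%, 41.5%, 30.7%, 50.8% and 21.8% under these alternatives in turn, and 18 of the 21 genes also passed the TPM fold. By TPM fold 16 genes were higher in replicate 1 and 11 in replicate 2, and Eif2b2 turned to a log2 ratio of 0.68. The ratio of the highest to the lowest eIF3 gene was 182 on mean TPM, 410.3 in CPM, and between 112 and 252 in single libraries. Genes with at least 2 transcripts past the limit fell to 5 at 20 percent, against 14 at 10 percent. Expressed genes numbered 48 at 5 TPM, 57 at 0.5 TPM and 56 in either library alone. The log2 ratio of Eif4g1 over Eif4g2 was 0.36 in CPM, where 9 pairs met the rule against 10 on TPM. On protein-coding transcripts it was -2.55. The log2 ratio of Eif1a over Eif1ax was 2.27 on protein-coding transcripts and -4.40 in CPM. The part of transcript length in these ratios was not tested. No paired analysis was possible because the series has 1 group. Precision is limited by 2 libraries, and by under 200 counts per library for Eif4e, Eef2kmt, Eef1akmt1, Eif4a2 and Eif4ebp3.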
